A study of Mus musculus with 3 samples.

Results

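The genes described here encode the Fos and Jun subunits of the transcription factor AP-1 (Fos, Fosb, Fosl1, Fosl2, Jun, Junb and Jund) and the related early response factors Egr1, Egr2 and Atf3. Every array spot other than a control whose deposited gene name was one of these symbols was taken, with every probe of each gene. This gave 9 genes with 11 probes and 38 spots, of 41174 probes and 43379 spots in all. Jund was not found by its symbol, because the array names it Jund1. Its probe was matched to Jund through its sequence record and is described beside the others as outside that choice, which makes 12 probes.

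RNA came from mouse neural stem cells, the dividing precursors of neurons and glia, of genotype Dnmt3a-/- or wildtype per the labels. Both kinds had been derived from embryonic stem cells, grown without serum in N2B27 medium with EGF and bFGF (10 ng/ml of each, 7 days), passed through neurospheres and then grown attached in the same growth factors. On each of 3 Agilent arrays, 1 per biological replicate, Cy3-labelled cRNA of the knockout (labelled KO) was hybridised together with Cy5-labelled cRNA of the wild type (labelled WT). The labels do not say how many lines or clones the replicates came from, so the p-values reflect no more than the spread among these samples. The dyes were not exchanged on any array, so a preference of a single probe for one dye and a difference between the RNAs cannot be told apart. In bulk RNA, fewer cells of a type and less RNA per cell cannot be told apart either.

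AP-1 is a dimer of basic leucine zipper proteins. Fos proteins bind DNA only with a partner such as a Jun protein, whereas Jun proteins can also pair with each other. In resting cells growth factors such as EGF and FGF switch on Fos, Jun, Junb and the Egr genes within minutes, without new protein synthesis, through the ERK, JNK and p38 kinases and the factors SRF, Elk and CREB at their promoters. The transcripts are short-lived, so their level in growing cells depends on ongoing signalling. Egr1 and Egr2 are zinc finger factors that bind GC-rich sites, and Atf3 is a stress-induced partner of Jun proteins.

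The stretches of promoter below show motifs known to read such signals. They come from RefSeq windows of GRCm38.p6 that run from 250 bases upstream of a transcription start to 50 bases downstream. Windows were found for 8 of the 10 genes but not for Egr1 and Fosl1, which were therefore not searched. The Fos stretch is the 130 bases before the start (chr12:85473760-85473889, plus strand), with capitals for the CREB core motif TGACG and for the TATA box TATAAA. The Jun stretch is the 130 bases before its start (chr4:95052223-95052352, minus strand), with capitals for TGACATCA, a variant of the AP-1 site. The Egr2 stretches each hold a CArG box, the binding motif of SRF, in capitals (chr10:67537484-67537513 and chr10:67537787-67537816, both plus strand).
Fos promoter: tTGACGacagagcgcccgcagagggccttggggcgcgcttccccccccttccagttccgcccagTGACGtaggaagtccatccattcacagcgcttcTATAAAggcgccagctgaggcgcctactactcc
Jun promoter: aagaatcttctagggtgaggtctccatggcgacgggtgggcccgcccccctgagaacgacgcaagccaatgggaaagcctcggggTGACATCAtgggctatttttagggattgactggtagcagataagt
Egr2 CArG box, first: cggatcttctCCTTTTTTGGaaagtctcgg
Egr2 CArG box, second: gttcctcagtCCATATATGGgcagcgacgt
Motifs were searched on both strands of 32851 windows of equal length. The CArG box occurred in 1.63% of the windows and, among the 8 genes searched, in those of Egr2, 72 bases upstream of 2 annotated starts. TGACATCA occurred in 3.62% of windows and lay 45 bases upstream of the Jun start. TGACG, which is contained in the longer CREB site TGACGTCA, occurred in 20.8% of windows and in those of 5 of the 8 genes (Atf3, Egr2, Fos, Fosb and Junb). In Fos it began 129 and 66 bases upstream, ahead of TATAAA at 33 bases. TATAAA was found in 13.6% of windows and in those of Fos and Junb. The full CREB site TGACGTCA (1.79% of windows) and the consensus AP-1 site TGACTCA (5.2%) were in none of the 8 genes' windows. A match describes these letters only, and bases outside the windows were not searched.

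Ratios below are log2 ratios (labelled KO over WT) after background correction and loess normalization within an array. Levels are log2 intensities per channel after a further quantile normalization of the average intensity between arrays. That step leaves the ratios unchanged, and levels compared across arrays rest on it. The difference between the levels of an array is its log2 ratio. A probe was called higher or lower where limma's test of the 3 ratios against 0 gave a Benjamini-Hochberg adjusted p under 0.05 over all 26627 tested probes. The targeted gene went against its label. Dnmt3a was higher in the RNA labelled KO with all 3 of its probes, by 0.61 ± 0.03, 0.76 ± 0.04 and 0.99 ± 0.08 (SD, n = 3), in every alternative tried. The sources used here do not say which exons of Dnmt3a were deleted, and probes to other exons could not detect the deletion. The libraries are therefore called by their labels throughout. The median log2 ratio of all tested probes was -0.01 and the median SD between arrays 0.0577. All 3 arrays lay on 1 slide scanned on 1 day.

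Within these transcription factors the changes went in both directions and were small. Fos, Fosl1, Jun, Atf3 and one of the Junb probes were higher in the RNA labelled KO (all but Fosl1 below 0 under median centring), whereas Egr2, Egr1 and one of the Fosl2 probes were lower, as was Jund. The largest difference was that of Egr2, 1.45-fold lower, and the largest rise that of Fos, 1.24-fold. Of the 11 probes, all of which were tested, 5 were higher, 3 were lower and 3 did not pass the threshold. The background was high: 20.7% of all tested probes were higher, 23.6% lower and 44.3% changed in either direction. The median ratio of the 11 probes was 0.03, and their median SD was 0.0668. When the arrays were centred on their medians without loess, the median ratio of all probes moved to -0.22, and Fos, Jun, Atf3 and the higher Junb probe then had ratios below 0, leaving Fosl1 as the only probe called higher.

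**Figure D1:**
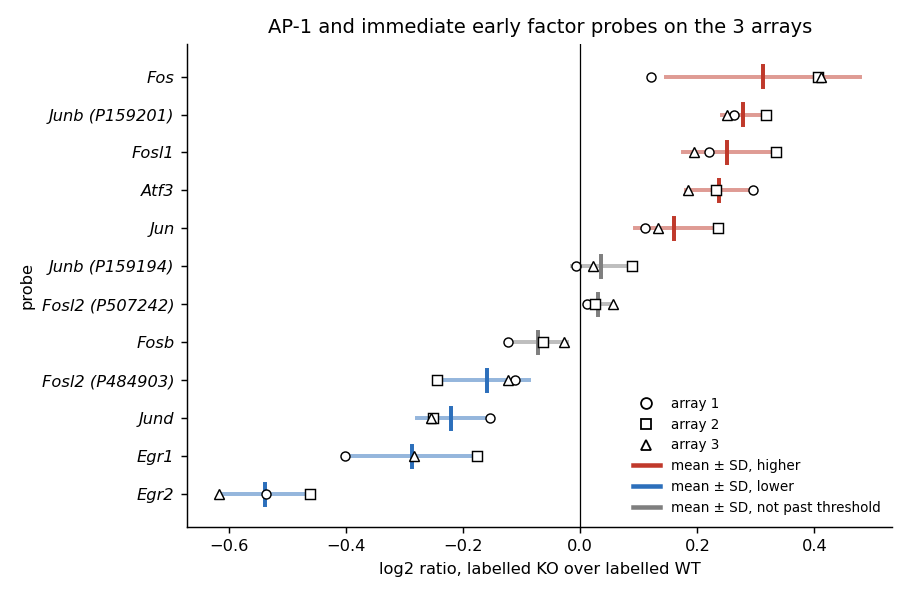
Log2 ratio (labelled KO over WT) for the 12 probes of AP-1 and early response factors, with 1 symbol per array, a vertical tick for the mean and a bar for ± 1 SD over the 3 arrays. Probes above 0 run up to Fos at 0.31 and those below 0 down to Egr2 at -0.54, and under median centring Fos, Jun, Atf3 and both Junb probes fell below 0.

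Fos encodes the subunit that is induced fastest by growth factors. Its probe (A_52_P262219, chr12:83478431-83478490 on mm7, plus strand) was spotted 10 times on each array. Its level in the RNA labelled KO was 8.44, 8.74 and 8.66 on arrays 1, 2 and 3, and in the RNA labelled WT 8.32, 8.34 and 8.25. The channels did not overlap, and the labelled KO level was the higher one on each array. The ratios were 0.12, 0.41 and 0.41, a mean of 0.31 ± 0.17 (SD, n = 3), with a 95% confidence interval from 0.18 to 0.45 and an adjusted p of 0.0030 with limma. Array 1 stood apart from the other two, and the SD was the widest of the 12 probes. The rise did not pass when the background model was fitted on all spots (0.12, adjusted p = 0.0563 with limma), and under median centring the ratio was -0.0055.

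The other Fos family members did not move together. Fosl1, a subunit that is itself induced by AP-1 and is raised in migrating and transformed cells, had levels of 6.70, 6.76 and 6.64 in the RNA labelled KO and of 6.48, 6.42 and 6.45 in the RNA labelled WT. These channels did not overlap either. The ratios of the Fosl1 probe (A_51_P308796, chr19:5350302-5350361 on mm7, plus strand) were 0.22, 0.33 and 0.20, a mean of 0.25 ± 0.07 (SD, n = 3, limma adjusted p = 0.0012). The probe was dim. Its uncorrected spot signal was 76.3 to 96.0 in the channel labelled KO and 76.5 to 89.3 in the channel labelled WT, where the median local background was 39.5 to 43. The size of its ratio therefore followed the background treatment: it was 0.69 with the scanner's own processed signals and 0.03 with the background model fitted on all spots (adjusted p = 0.0790 with limma).

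Fosb, the family member known for its stable splice form in neurons, was measured with probe A_51_P138378 (chr7:16985502-16985561 on mm7, minus strand). Its levels were 7.15, 7.31 and 7.16 in the RNA labelled KO and 7.28, 7.37 and 7.19 in the RNA labelled WT. The channels overlapped, although the labelled KO level was the lower one within each array. The mean ratio of -0.07 ± 0.05 (SD, n = 3) did not pass the threshold (limma adjusted p = 0.139), with a 95% confidence interval from -0.15 to 0.01.

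Fosl2, which codes for another Fos-related partner of Jun proteins, has 2 probes that gave different answers. Probe A_52_P484903 (chr5:31189767-31189826 on mm7, plus strand) had levels of 8.30, 8.19 and 8.24 in the RNA labelled KO against 8.41, 8.44 and 8.36 in the RNA labelled WT. The channels did not overlap, and the ratio fell by 0.16 on the log2 scale (SD 0.07, n = 3, limma adjusted p = 0.0109). That call was lost without array 2 (-0.12, adjusted p = 0.0752 with limma), with the scanner's processed signals and with the authors' value table. Probe A_51_P507242 (chr5:31185231-31185290 on mm7, plus strand) had levels of 6.25, 6.33 and 6.27 against 6.23, 6.30 and 6.21. Here the channels overlapped, and the mean ratio of 0.03 ± 0.02 did not pass (limma adjusted p = 0.486). This probe was well above background on 2 of 3 arrays in the channel labelled KO. Within an array the latter probe's ratio exceeded the former's by 0.12, 0.27 and 0.18.

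**Figure D2:**
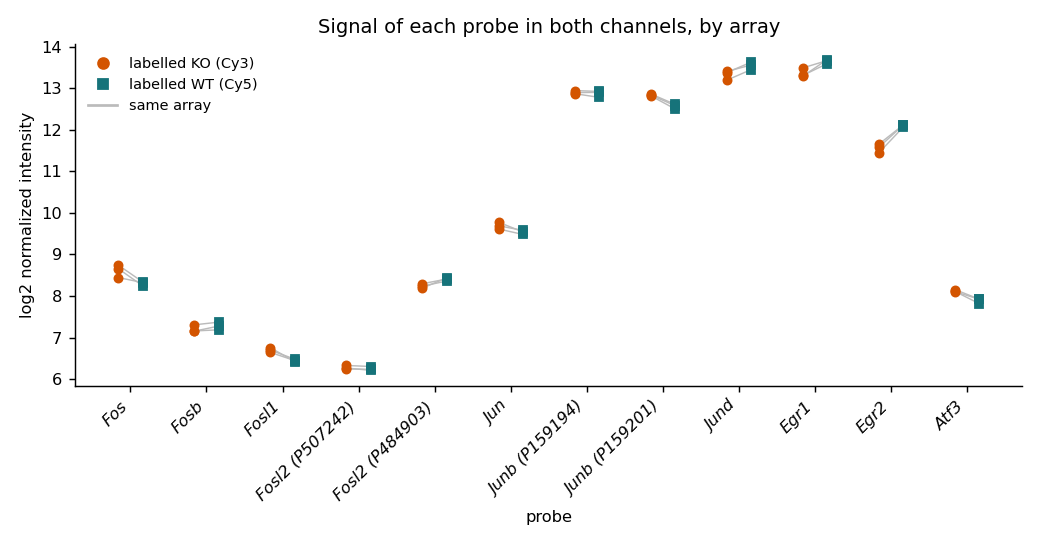
Log2 normalized intensity of each probe in the channel labelled KO (orange circles) and in the channel labelled WT (green squares), with grey lines joining the values of 1 array. The channels of Egr2 lie at 11.45 to 11.65 and 12.06 to 12.12, clear of each other. Those of Fosb, of Fosl2 probe A_51_P507242 and of the first Junb probe overlap. Probes differ in how well they bind, so heights are not compared between probes.

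Jun, the main partner of Fos and a gene that AP-1 itself activates through a variant AP-1 site, was spotted 10 times on each array (A_51_P325914, chr4:94441779-94441838 on mm7, minus strand). Its levels were 9.69, 9.78 and 9.61 in the RNA labelled KO and 9.58, 9.54 and 9.48 in the RNA labelled WT. The channels did not overlap. The ratios of 0.11, 0.24 and 0.13 averaged 0.16 ± 0.07 (SD, n = 3), a 1.12-fold rise with a limma adjusted p of 0.0098, whereas under median centring the ratio was -0.24. Without array 2 the mean was 0.12 and did not pass (adjusted p = 0.0664 with limma). The call was also lost with the background model fitted on all spots.

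Junb, a Jun protein that dampens the activity of Jun on many promoters, also has 2 probes. They overlap by 22 bases of the transcript, printed here because such close probes read the same RNA (chr8:83563097-83563118 on mm7, minus strand).
Junb probe overlap: TTCGTGTCTAAAGTCTATTTTA
Probe A_51_P159201 (chr8:83563097-83563156) had levels of 12.84, 12.82 and 12.86 in the RNA labelled KO and 12.58, 12.50 and 12.61 in the RNA labelled WT. These did not overlap, and the mean ratio was 0.28 ± 0.04 (SD, n = 3, limma adjusted p = 3.5e-04), although it was -0.25 under median centring. Probe A_51_P159194 (chr8:83563059-83563118) had levels of 12.89, 12.87 and 12.94 against 12.90, 12.78 and 12.92. Here the channels overlapped, and the mean ratio of 0.03 ± 0.05 did not pass (limma adjusted p = 0.462). It turned to -0.036 with the scanner's signals and to -0.50 under median centring. The ratio of the latter probe lay below that of the former by a difference of -0.27, -0.23 and -0.23 on the 3 arrays, a mean of -0.24 ± 0.02. Junb therefore had no single ratio in these data. The 2 probes lie in rows 430 and 531 of 532 on the array. Over all 532 rows the ratios of other probes rose by 0.12 to 0.15, as described below. The part of position in the difference between the Junb probes was not tested.

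Jund, the Jun protein that is expressed steadily and restrains proliferation in many cells, went the other way from Jun. Its probe (A_51_P357744, chr8:69154598-69154657 on mm7, plus strand) had levels of 13.40, 13.37 and 13.19 in the RNA labelled KO and of 13.56, 13.63 and 13.45 in the RNA labelled WT. The channels did not overlap. The ratios of -0.15, -0.25 and -0.25 averaged -0.22 ± 0.06 (SD, n = 3), 1.16-fold lower with a limma adjusted p of 0.0017. The call was lost in 2 of the 13 alternatives, at an adjusted p of up to 0.0612 with limma. With the scanner's processed signals, which are among these, the ratio was -0.15 (adjusted p = 0.0549 with limma).

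Both Egr genes were lower in the RNA labelled KO. Egr2, known for its part in hindbrain patterning and in myelination by Schwann cells, was spotted 10 times (A_51_P173043, chr10:67145376-67145435 on mm7, plus strand). Its levels were 11.58, 11.65 and 11.45 in the RNA labelled KO and 12.11, 12.12 and 12.06 in the RNA labelled WT. The channels were far apart beside the spread within each. The ratios of -0.54, -0.46 and -0.62 averaged -0.54 ± 0.08 (SD, n = 3), with a 95% confidence interval from -0.63 to -0.45 and a limma adjusted p of 1.9e-05. Egr2 stayed past the threshold in each of the 13 alternatives, at -1.03 to -0.50.

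Egr1, the family member with the broadest response to growth factors and neuronal activity, lies on chromosome 18 and has 1 probe (A_51_P367866). Its levels were 13.29, 13.49 and 13.31 in the RNA labelled KO and 13.69, 13.66 and 13.59 in the RNA labelled WT, with no overlap. The ratios of -0.40, -0.18 and -0.28 averaged -0.29 ± 0.11 (SD, n = 3), 1.22-fold lower with a limma adjusted p of 0.0014. In the authors' value table the mean was -0.22, with an adjusted p of 0.0518 from limma. Egr3, another Egr factor, taken from the list of other early genes, had a ratio of 0.17 ± 0.07 (limma adjusted p = 0.0086) that turned to -0.06 under median centring, and Egr4 was not above background.

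Atf3, a repressor and Jun partner induced by many stresses, was measured with probe A_52_P452689 (chr1:190724174-190724233 on mm7, minus strand). Its levels were 8.11, 8.15 and 8.10 in the RNA labelled KO and 7.81, 7.92 and 7.92 in the RNA labelled WT. The channels did not overlap. The ratios of 0.29, 0.23 and 0.18 averaged 0.24 ± 0.06 (SD, n = 3), 1.18-fold higher with a limma adjusted p of 0.0011, whereas median centring gave -0.04. With the background model fitted on all spots the ratio was 0.09 and did not pass (adjusted p = 0.0804 with limma).

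The repeat spots of Fos, Jun and Egr2 show how a ratio varied over 1 array. The unmarked spots of Egr2 ranged from -0.62 to -0.44 on array 1, from -0.58 to -0.35 on array 2 and from -0.71 to -0.51 on array 3, all below 0. Those of Fos ranged from 0.03 to 0.18 on array 1, from 0.34 to 0.53 on array 2 and from 0.34 to 0.50 on array 3, so the gap between array 1 and the others held spot by spot. Those of Jun ranged from 0.01 to 0.33 over the 3 arrays. The ratios of all 3 genes rose along the array. From the first to the last of 532 rows a line through the Egr2 spots rose by 0.20, 0.26 and 0.23 on the 3 arrays, through the Fos spots by 0.11, 0.25 and 0.08 and through the Jun spots by 0.24, 0.24 and 0.23.

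A rise was also seen in other genes, where the common slope fitted to 172 other probes spotted 10 times was 0.12, 0.15 and 0.14. Because it had the same sign on each array, the SD between arrays does not contain it, and a probe with a single spot takes its position with it. With loess run in 8 separate bands of rows, the slope of the 172 probes was -0.0023 to 0.0046. Then Egr2, Egr1, Jund, Fos, Fosl1, Jun, Atf3 and the higher Junb probe kept their calls, and the lower Fosl2 probe, in row 18, did not (-0.08, adjusted p = 0.125 with limma). On array 3, 3 of the 10 Egr2 spots carried the scanner's outlier marks. Over the 7 spots without a mark on any array the Egr2 ratios were -0.57, -0.49 and -0.62, a mean of -0.56 ± 0.06.

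**Figure D3:**
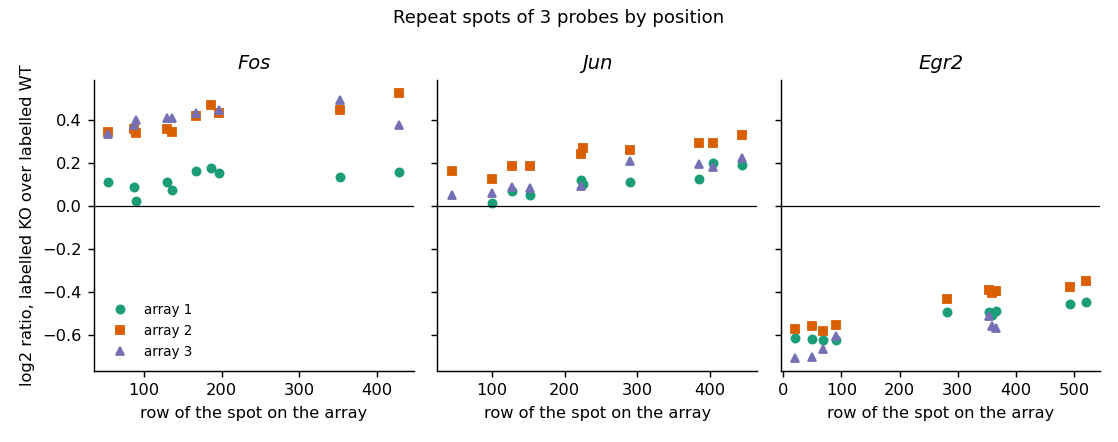
Log2 ratio (labelled KO over WT) of each unmarked spot of Fos, Jun and Egr2 against the spot's row on the array, with 1 symbol and colour per array. The spots of Egr2 stay below 0 throughout and rise with the row by 0.20 to 0.26 from the first to the last row, and those of Fos and Jun, which are above 0 here, moved to means of -0.01 and -0.24 under median centring.

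The other immediate early genes, which respond to the same signals, were mostly higher in the RNA labelled KO, though not under median centring, where 2 were higher and 14 lower. Of 32 genes listed, 29 were tested. Of these, 17 were higher, 8 were lower and 4 did not pass, against 21.9% higher, 24.8% lower and 46.8% either way of 18033 genes by their brightest probe, and the list's median ratio was 0.20 against -0.01 over all genes. Ptgs2, the inducible prostaglandin synthase, was higher by 1.41 ± 0.14 (SD, n = 3, limma adjusted p = 4.2e-07). Maff, a small Maf factor, was higher by 0.75 ± 0.05, and this and the Ptgs2 call held under median centring. Ier5, a regulator of the heat shock factor, was higher by 0.73 ± 0.05 and Btg2, an antiproliferative factor, by 0.63 ± 0.05, both without a call under median centring.

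Of the 8 early genes that were lower, Arc, a synaptic plasticity gene, had a ratio of -1.22 ± 0.09 (SD, n = 3, limma adjusted p = 3.1e-07), the largest fall in the list. Dusp1, the phosphatase that switches off MAP kinases, was at -0.44 ± 0.06. Homer1, a synaptic scaffold, was at -0.28 ± 0.06 and Gem, a small GTPase, at -0.22 ± 0.04, and neither passed with the background model fitted on all spots. Among the genes that did not pass, Klf2 varied most, with ratios of 0.30, -0.51 and -0.31, and Rhob was at -0.09. Nr4a3, Npas4 and Egr4 were not above background.

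Of 19 other proteins that can pair with Fos or Jun proteins or compete for their sites, 17 were tested, of which 4 were higher, 8 were lower and 5 did not pass, with a median of -0.04. The share called was 70.6%, against 46.8% of all genes (21.9% higher and 24.8% lower). Nfe2l2, the antioxidant response factor, was higher by 0.57 ± 0.04 (SD, n = 3, limma adjusted p = 6.8e-06) and Mafk, its small Maf partner, by 0.27 ± 0.02, both without a call under median centring. Batf3 was higher by 0.33 ± 0.09, with a ratio of -0.08 under median centring.

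On the lower side Atf5, a factor of cell survival and stress, had the largest ratio, at -0.98 ± 0.03 (SD, n = 3, limma adjusted p = 3.5e-07) and Atf4, the effector of the integrated stress response, at -0.38 ± 0.10. Jdp2, a repressor that dimerises with Jun, was at -0.34 ± 0.01. Atf2, a partner of Jun, was at -0.25 ± 0.08, and this call was lost with the scanner's signals. Bach1 at 0.07 and Batf2 at -0.04 did not pass, and Batf and Mafa were not above background.

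Of 27 kinases and factors upstream of these genes, 26 were tested, of which 8 were higher, 2 were lower and 16 did not pass, with a median of 0.05. The share called, 38.5%, was near the 46.8% of all genes. Rps6ka4, a kinase that phosphorylates CREB and histones at early genes, was higher by 0.36 ± 0.04 (SD, n = 3, limma adjusted p = 8.3e-05). Elk3 and Mrtfa, both partners of SRF, were higher by 0.35 ± 0.03 and 0.27 ± 0.08. These 3 genes had ratios of -0.05, -0.14 and -0.18 under median centring, where none of the list was called higher and 14 were called lower. Mapk10, a JNK kinase of neurons, was higher by 0.22 ± 0.10, without a call under median centring. Map3k1, a kinase upstream of JNK, was at -0.44 ± 0.11 and Mapk14, which encodes a p38 kinase, at -0.20 ± 0.06. Creb1 at -0.10 and Rps6ka5 at 0.09 did not pass, and Elk1 was not above background.

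Most known AP-1 target genes were higher in the RNA labelled KO, whereas under median centring 6 were higher and 7 lower. Of 27 genes, 24 were tested, of which 19 were higher, 3 were lower and 2 did not pass, with a median of 0.31. The share called was 91.7%, against 46.8% of all genes (21.9% higher and 24.8% lower). This list was written with some of its values known, so its count is a description only. Mmp3, a matrix protease whose promoter is a textbook AP-1 target, was higher by 3.01 ± 0.06 (SD, n = 3, limma adjusted p = 4.2e-09). Spp1, the matrix protein osteopontin, was higher by 2.53 ± 0.01. Ccnd1, the cyclin that carries growth factor signals into the cell cycle, was higher by 1.26 ± 0.0039, and Hmga1, a chromatin protein, by 1.18 ± 0.01. These 4 kept their calls under median centring.

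The targets that were lower were the protease gene Mmp9 at -0.48 ± 0.06, Vegfa, an angiogenic factor, at -0.35 ± 0.0039, and Plaur, the urokinase receptor, at -0.15 ± 0.06. The Plaur call was lost with the scanner's signals. Tgfb1 at -0.03 and Mt1 at 0.03 did not pass, Mmp13 and Fasl were not above background, and Lif had no matched probe. The ratios of Mmp3 and Spp1 were several times those of any Fos or Jun probe.

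**Figure D4:**
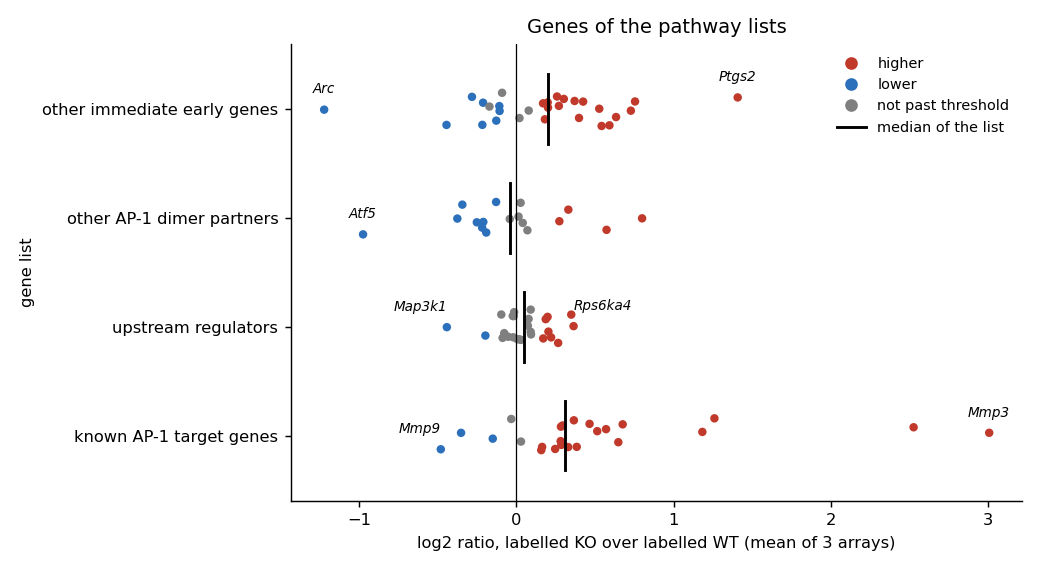
Mean log2 ratio (labelled KO over WT) over 3 arrays for each tested gene of 4 lists, 1 point per gene, with colour for the call and a black bar for the list's median. The medians are 0.20, -0.04, 0.05 and 0.31 from top to bottom, and under median centring the higher calls of the lists dropped to 2, 1, 0 and 6.

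Markers of the cells that the cultures could hold were read against the same background of 46.8% of genes called. Of 10 neural stem cell markers 2 were higher, 6 were lower and 2 did not pass, a share called of 80%. Sox2 was at -0.36, whereas Pax6 at 0.24 and Prom1 at 0.14 were higher. Neither rise passed with the background model fitted on all spots. The summed log2 level was 15.75 to 15.79 in the RNA labelled KO and 15.96 to 16.03 in the RNA labelled WT. Of 9 fibroblast and mesenchymal markers, all tested, none was higher and 6 were lower, a share called of 66.7%. Col1a2 was at -1.48, and the summed level was 17.27 to 17.31 against 17.67 to 17.80. Col1a1 and Col3a1 were saturated on each array for the RNA labelled WT, and without them the summed level was 16.40 to 16.44 against 16.90 to 16.91. Of 7 Schwann cell and neural crest markers, where Egr2 is best known, 1 was higher, 2 were lower and 4 did not pass, a share called of 42.9%. Ngfr was at -2.07 and Pmp22 at -0.64, whereas Tfap2a was at 0.43, without a call under median centring. Sox10 at 0.02 did not pass. The summed level was 12.75 to 12.99 against 13.81 to 13.98. Pmp22 and Ngfr, at 13.07 and 12.59 in the RNA labelled WT, made up most of that sum.

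Markers of 4 other cell types were read in the same way, and their shares called were 42.9% for neurons, 50% for microglia, 0% for endothelium and 25% for embryonic stem cells. Of 8 neuron markers 7 were tested and 3 were lower, Dcx at -0.53 among them, with a summed level of 12.06 to 12.23 against 12.23 to 12.36. Of 8 microglia and macrophage markers 4 were tested, with 1 higher and 1 lower and a summed level of 9.36 to 9.39 against 9.42 to 9.43, and Aif1, Itgam, Ptprc and Adgre1 were not above background. Of 6 endothelial markers 3 were tested and none passed, with Pecam1, Cdh5 and Tie1 not above background and a summed level of 8.997 to 9.10 against 9.05 to 9.09. Of 7 embryonic stem cell markers 4 were tested and 1 was higher, with Pou5f1, Nanog and Zfp42 not above background and a summed level of 13.15 to 13.64 against 13.35 to 13.81. Klf2, which is also on the list of early genes, made up most of that sum, and without it the level was 9.10 to 9.16 against 9.07 to 9.11. Sox2, Col1a2, Ngfr, Pmp22 and Dcx kept their direction in all 13 alternatives, as did Pax6 and Tfap2a, and Prom1 did in 12 of them. The part of these markers in the ratios of the transcription factors was not tested.

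**Figure D5:**
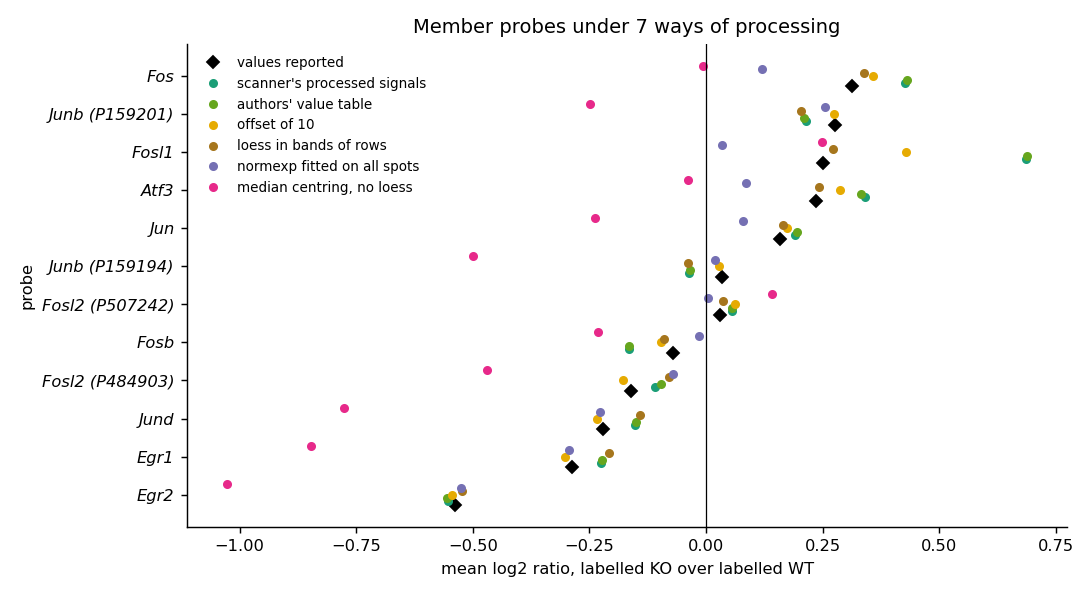
Mean log2 ratio (labelled KO over WT) of each probe under 7 ways of processing the same arrays, with black diamonds for the values reported. Egr2 lies at -0.54 or close to it in all but median centring, where it is -1.03, while Fosl1 spreads from 0.03 to 0.69 and Fos, Jun, Atf3 and the higher Junb probe fall below 0 under median centring.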

How the data were processed

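RNA labelled KO and RNA labelled WT were compared on 3 two-colour arrays. Per the file headers, the deposited spot and background signals are raw intensity values from Feature Extraction 9.5.3.1, with probe positions on mm7 and the scanner's log ratio a log10 ratio of red over green. The deposited marks of outlier, saturated and well-above-background spots (other) were used as filters. The authors' deposited value table matched log2 labelled KO over labelled WT (r = -0.998, -0.996 and -0.992 with the scanner's red over green), with column medians of 0.0276, and how it was centred is not stated in the sources used.

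Signals were corrected with normexp (offset 50, fitted on unmarked spots), normalized by loess within arrays and averaged over a probe's unmarked spots (170, 173 and 242 marked spots), in limma 3.58.1 and R 4.3.3. For the channel levels, the average intensity of both channels was also quantile normalized between arrays (Aquantile). The offset draws ratios of dim probes toward 0. The share of probes well above background in a channel was 63.6% to 68.8%, and the number of arrays limits the precision. A probe was tested if well above background in at least 0.5 of its spots in either channel on all 3 arrays. limma's lmFit and eBayes tested the mean ratio against 0 (two-sided, 2 residual degrees of freedom, prior 6.07), adjusted over 26627 probes, and the script was tested on simulated data. Of the probes, 22951 were named by accession and 9768 by symbol or synonym through RefSeq (GRCm38.p6), and 8455 kept their name. A list gene was represented by its brightest tested probe.

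All members were named. Per list, up to 4 genes past the threshold in each direction with the largest mean ratios were named, and up to 2 not past it, beside Dnmt3a as label check. Some genes of the lists are not reported here by name. Egr3, Egr4 and the genes not above background were named outside that rule, as were the marker genes. The members, lists and background model were chosen with earlier results of these data known. Alternatives changed the background, offset, normalization, filter, probe choice, value table or number of arrays. Removing the trend over rows and columns, and loess in 8 bands of rows, were added after seeing the data.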

Additional observations from a re-analysis of the deposited data

How the results depend on the processing

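Fitting the background on all spots left 1 member probe higher in place of 5. It left 5 lower early genes and 5 higher upstream genes, and 2690 higher and 3670 lower of all probes in place of 5517 and 6285. Median centring without loess gave 1 higher and 5 lower member probes. There the early genes counted 2 higher and 14 lower, dimer partners 1 higher, upstream genes 0 higher and 14 lower, targets 6 higher and 7 lower, and all probes 1160 higher and 13071 lower. The authors' table gave 1 lower member probe in place of 3, and 4 lower dimer partners in place of 8. The scanner's signals gave 5 lower dimer partners, and 8 bands gave 4 lower upstream genes in place of 2. Leaving out 1 array in turn gave 4 to 5 higher and 2 to 3 lower member probes, and without replicate 3 the lower early genes were 5. Under median centring the ratio was -0.50 for Junb probe A_51_P159194, -0.25 for A_51_P159201, -0.24 for Jun, -0.0055 for Fos and -0.038 for Atf3, and the former Junb probe was -0.036 with the scanner's signals, -0.039 in 8 bands and -0.035 in the authors' table. The cause was not tested. Fosb passed at -0.23 under median centring and at -0.11 with the trend over rows and columns removed, a step that left a slope of 0.10 to 0.12 over the 172 probes. In 8 bands, which took that slope away, it did not pass (-0.089, adjusted p = 0.0814 with limma). No paired analysis was possible because there is 1 group and each ratio already pairs the RNAs of 1 replicate number. Dim probes, Fosl1 and a Fosl2 probe, are limited by signal over background.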
